A study of Mus musculus with 7 samples.

Results

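The genes of the 3 DNA methyltransferases Dnmt1, Dnmt3a and Dnmt3b, of the cofactor Dnmt3l and of Uhrf1 were examined for 5-formylcytosine (5fC), an oxidized form of 5-methylcytosine (5mC). These 5 genes were chosen by name from the 22367 protein-coding genes of the GENCODE M1 annotation of the mouse genome (build mm9) by a rule that used no measured value. Earlier results of these data were known when the choice was made. 5fC had been tagged with biotin and pulled down for sequencing in J1 cells, a mouse embryonic stem (ES) cell line of the strain 129S4/SvJae, with 2 pulldown libraries in each of 3 conditions. TDG KD cells had been transfected with an siRNA pool against Tdg, the gene of thymine DNA glycosylase, which excises 5fC. The siRNA control cells had been transfected with a non-targeting siRNA. Both kinds of cell were kept without feeders and went through 3 rounds of transfection, whereas the wild-type cells grew on a layer of irradiated pMEF feeder cells and received no siRNA. The siRNA control and wild-type cultures thus differed in feeders, transfection and siRNA at once, and these cannot be told apart. All 6 pulldowns were set against the same single input library, so that their values are not fully independent. Transcripts were not analysed here, so neither the loss of Tdg nor the markers of ES cells could be checked in these data, and DNA from feeder cells in the wild-type pulldowns was not tested for.

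DNA methylation in mammals is laid down at CpG sites by the de novo enzymes Dnmt3a and Dnmt3b, helped in germ and ES cells by Dnmt3l, a relative without catalytic activity of its own. Dnmt1 copies the mark onto the new strand after replication, and Uhrf1 binds hemimethylated CpG sites and brings Dnmt1 to them. The Tet enzymes oxidize 5mC stepwise to 5hmC, 5fC and 5caC, and Tdg cuts out 5fC and 5caC, so that 5fC lies on a route by which methylation can be lost.

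Each gene was read in separate windows. The promoter was the sequence within 1 kb on either side of the 5′ end of the gene record, and the gene body was the rest of the gene. On mm9, Dnmt1 lies on chr9:20711650-20757317 (minus strand), Uhrf1 on chr17:56442744-56462909, Dnmt3a on chr12:3806007-3914443, Dnmt3b on chr2:153475186-153513466 and Dnmt3l on chr10:77504692-77526367 (all plus strand). Because 5fC arises from methylated cytosine, which in these cells is found mainly at CpG sites, the 150 bases just before each 5′ end are shown from the reference genome, read 5′ to 3′ in the direction of transcription with each CpG in capitals. They contain no annotated exon.
Dnmt1, chr9:20757318-20757467, minus strand: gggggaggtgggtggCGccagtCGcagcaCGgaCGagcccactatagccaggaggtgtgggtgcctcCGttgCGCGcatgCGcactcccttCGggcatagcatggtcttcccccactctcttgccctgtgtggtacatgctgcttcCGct
Uhrf1, chr17:56442594-56442743, plus strand: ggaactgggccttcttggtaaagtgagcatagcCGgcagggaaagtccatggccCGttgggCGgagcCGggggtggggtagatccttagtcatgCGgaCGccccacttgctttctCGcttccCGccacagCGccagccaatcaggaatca
Dnmt3a, chr12:3805857-3806006, plus strand: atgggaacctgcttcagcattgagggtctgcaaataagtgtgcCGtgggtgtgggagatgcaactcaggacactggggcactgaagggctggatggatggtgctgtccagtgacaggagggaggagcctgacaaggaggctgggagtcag
Dnmt3b, chr2:153475036-153475185, plus strand: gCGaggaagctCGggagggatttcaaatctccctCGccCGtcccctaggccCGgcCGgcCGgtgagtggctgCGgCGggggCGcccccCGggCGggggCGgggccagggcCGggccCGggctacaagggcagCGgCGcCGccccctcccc
Dnmt3l, chr10:77504542-77504691, plus strand: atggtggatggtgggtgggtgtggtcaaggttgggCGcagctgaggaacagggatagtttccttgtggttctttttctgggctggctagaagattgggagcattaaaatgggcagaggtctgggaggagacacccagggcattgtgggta
The Dnmt3b stretch held 18 CpG sites, those of Dnmt1 and Uhrf1 held 10 and 9, and those of Dnmt3a and Dnmt3l held 1 each. Over the whole promoter window the ratio of observed to expected CpG was 0.686 for Dnmt3b, 0.622 for Uhrf1, 0.579 for Dnmt3a, 0.495 for Dnmt1 and 0.208 for Dnmt3l, against a median of 0.468 over all genes. A CpG-rich stretch, here any run of overlapping 200 bp windows with over 50% GC and a CpG ratio over 0.6, touched the promoter window of every member but Dnmt3l, and of 67.7% of all genes. The set therefore spans CpG-dense and CpG-poor promoters.

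The files gave domains, stretches of the genome that the program rseg had placed in the state enriched, background or unconfident in each library against the input. Each domain had 1 score, the number of pulldown reads per 100 bp bin minus that of the input, averaged over the domain. Depth was 20.4 to 45.9 M uniquely placed reads per pulldown and 26.5 M for the input. The library TDG KD 1 stood apart, with 161 Mb enriched and 505 Mb unconfident, against 475 to 566 Mb enriched and 0.214 to 6.30 Mb unconfident in the other 5. The library wild type 1 also stood apart, with enriched domains of a median of 700 bp against 5900 to 24550 bp elsewhere. It divided these genes most finely. The replicate numbers follow the order of the records and pair no libraries. The study describes its replicates as biological, and the labels name no separate cultures, so p-values measure the spread between these libraries.

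All 5 genes lay in enriched domains of most pulldowns, at the promoter and in the body alike. A window counted as enriched when at least 50% of its length lay in enriched domains. By this measure the promoter of each member was enriched in 5 of 6 pulldowns, as were 28.2% of all promoters in at least 5 of 6. The gene bodies of all 5 members were enriched in at least 5 pulldowns, against 32.2% of all bodies. Uhrf1 was the only member whose body was enriched in all 6, for which the share of all bodies was not computed.

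**Figure D1:**
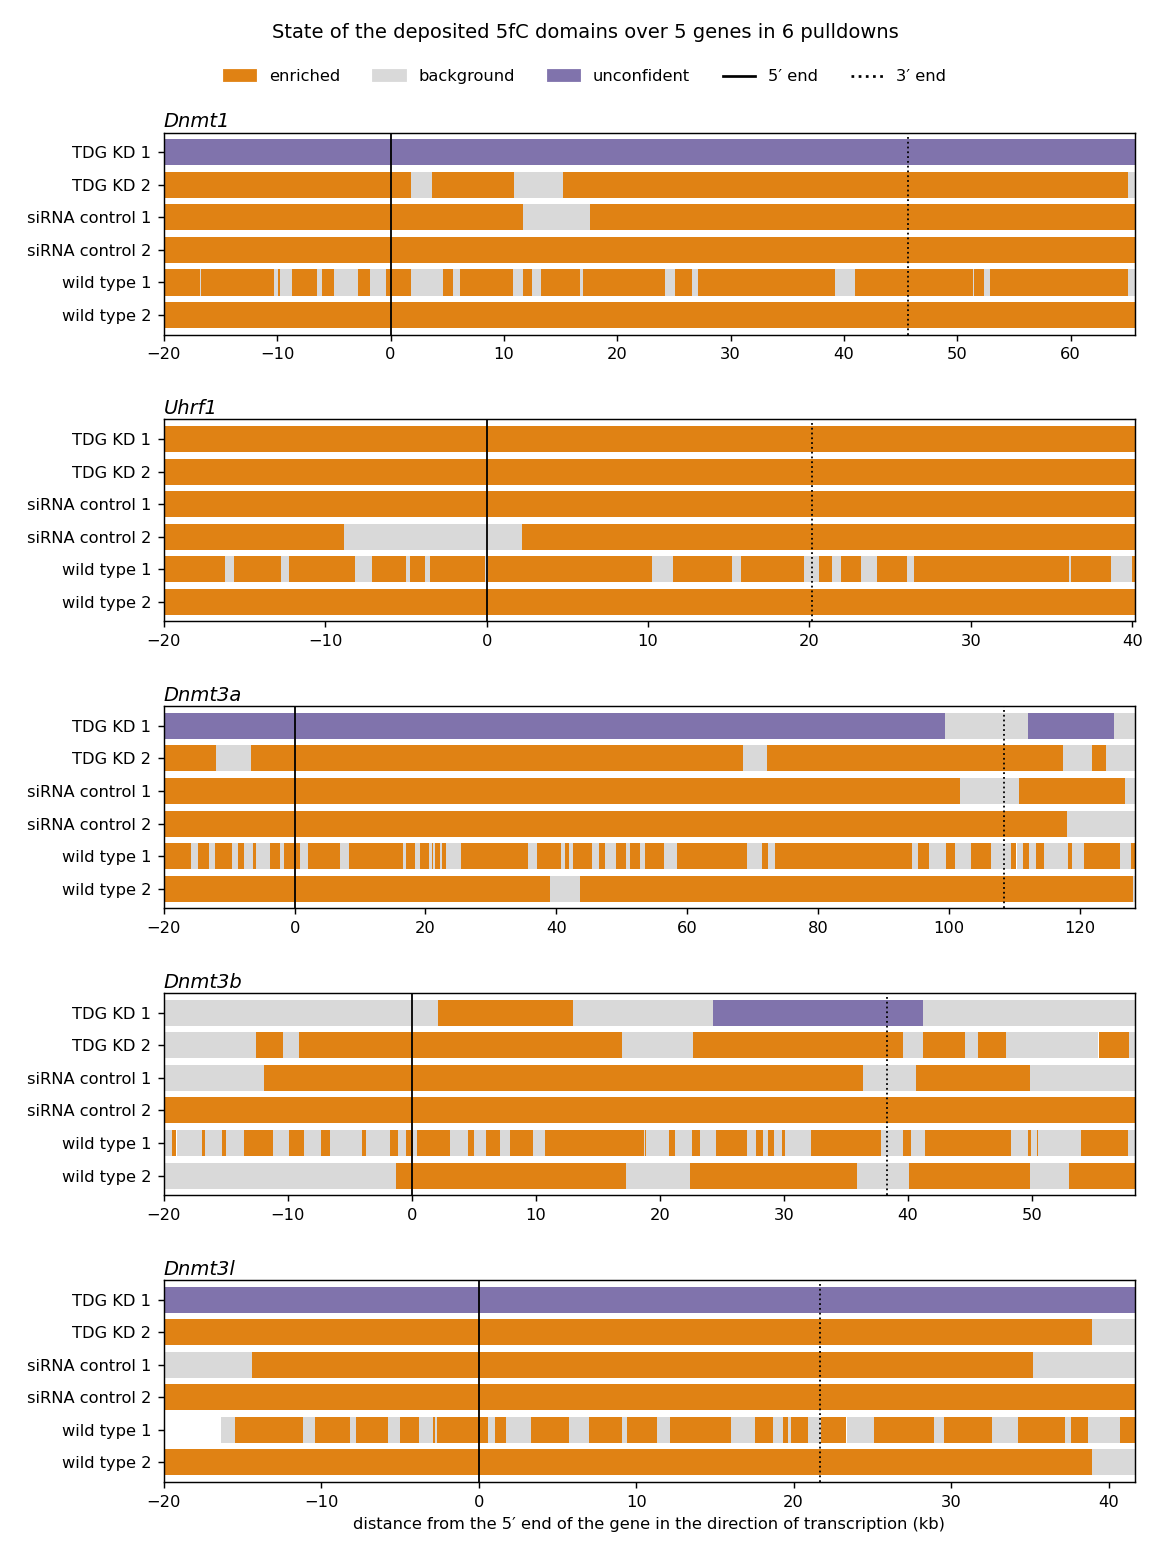
Each panel shows 1 gene with 20 kb on either side, and each row 1 pulldown. The x axis is the distance from the 5′ end in kb, and the colour is the state of the deposited domain, with white where no domain was read. In TDG KD 1 the enriched state was found over Uhrf1 and part of Dnmt3b, and only wild type 1 broke the genes into short domains.

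In TDG KD cells 1 of 5 promoters was enriched in both replicates, that of Uhrf1, against 14.5% of all genes. In siRNA control cells 4 of 5 were, all but that of Uhrf1, against 33.2% of all genes, and in wild-type cells 5 of 5 were, against 37.4%. The corresponding counts for gene bodies were 1 of 5 in TDG KD cells (14.7% of all genes), 5 of 5 in siRNA control cells (38.3%) and 5 of 5 in wild-type cells (35.4%). The low count in TDG KD cells came from TDG KD 1 alone, since in TDG KD 2 all 5 promoters and all 5 bodies were enriched. Over all genes, 53.4% of promoters and 46.5% of bodies were enriched in TDG KD 2. In TDG KD 1 the promoters of Dnmt1, Dnmt3a and Dnmt3l were unconfident, as were 32.6% of all promoters, and that of Dnmt3b was background. The share of the genome that was called enriched in this library was low throughout, and its part in these counts was not tested.

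The domains that held the 5′ ends were mostly much wider than a promoter. In TDG KD 1 they were 41.0 to 966.1 kb wide and in TDG KD 2 26.0 to 274.0 kb. In siRNA control 1 and 2 they spanned 48.3 to 270.6 kb and 11.0 to 987.9 kb, and in wild type 2 18.6 to 417.7 kb. In wild type 1 they spanned 0.2 to 3.3 kb. The widest, in siRNA control 2, ran over 987.9 kb around Dnmt3l, and the 5′ ends of 29 protein-coding genes lay in it. Where a whole gene fell in 1 domain, its promoter and body had the same value by construction. This was so for 3 of 5 genes in TDG KD 1 and 2 of 5 in TDG KD 2, for 2 and 4 of 5 in siRNA control 1 and 2, and for 0 and 3 of 5 in wild type 1 and 2.

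Levels were next compared between conditions. The level of a window was its length-weighted score minus the mean score of the library, divided by the library's M uniquely placed reads, in reads per 100 bp bin per M reads. A level of 0 is therefore the average of that library. The input was subtracted without scaling to depth, so levels of libraries of unlike depth may still differ for that reason, which was not tested. With 2 libraries in each of 2 groups the smallest p that the exact two-sided permutation test can give is 0.333, so no single difference below can pass a threshold of 0.05.

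Dnmt1, the maintenance methyltransferase, had promoter levels of 0.0102 and 0.0241 in TDG KD 1 and 2, against 0.00835 and 0.00784 in siRNA control 1 and 2. Both TDG KD values lay above both control values, and Dnmt1 was the only member of which this was true. The mean difference was 0.00908, with means of 0.0172 ± 0.00984 in TDG KD and 0.00809 ± 0.000365 in siRNA control (SD, n = 2 each; p = 0.333, exact two-sided permutation test). Over all genes, 11.0% of promoters lay higher in both TDG KD than in both control libraries, so that 1 of 5 is close to the background. In the body Dnmt1 had 0.0102 and 0.0207 in TDG KD, against 0.0113 and 0.00784 in siRNA control, and the groups overlapped.

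Uhrf1, the partner that brings Dnmt1 to hemimethylated DNA, had promoter levels of 0.0152 and 0.0360 in TDG KD, against 0.0220 and -0.00310 in siRNA control. The value below the library mean stood in siRNA control 2, where a background domain of 11.0 kb covered the 5′ end. The mean difference of 0.0161 was the largest of the 5 promoters and yet smaller than the SD of 0.0178 between the control libraries (p = 0.667, exact two-sided permutation test). Without siRNA control 2 it was 0.00356, below the 0.00882 of Dnmt1. The body of Uhrf1 did not show this gap: it had 0.0152 and 0.0360 in TDG KD, against 0.0220 and 0.0149 in siRNA control. The groups overlapped in both windows.

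Dnmt3a, a de novo methyltransferase, had promoter levels of 0.0123 and 0.0257 in TDG KD, against 0.0167 and 0.00806 in siRNA control. Dnmt3b, the other de novo enzyme, had 0.000189 and 0.0216 in TDG KD, against 0.0105 and 0.00453 in siRNA control. Dnmt3l, their cofactor, had 0.0118 and 0.0294 in TDG KD, against 0.0168 and 0.0102 in siRNA control. In all 3 genes TDG KD 2 had the highest value of the 4 libraries and the groups overlapped. The differences were 0.00661 (p = 0.667), 0.00338 (p = 1) and 0.00709 (p = 0.667) by the exact two-sided permutation test, each smaller than the SD between the TDG KD libraries.

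Gene bodies gave a like picture for these 3 genes. Dnmt3a had 0.0123 and 0.0230 in TDG KD, against 0.0160 and 0.00806 in siRNA control. Dnmt3b had 0.00111 and 0.00967 in TDG KD, against 0.00914 and 0.00453 in siRNA control, and its mean difference of -0.00144 was the only negative one of the 10 windows (p = 1, exact two-sided permutation test). Dnmt3l had the same values as at its promoter, because 1 domain covered the gene in each of these libraries. Of the 5 bodies, 0 lay higher in both TDG KD than in both control libraries, against 8.59% of all bodies.

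The siRNA libraries carried the name prefix BHAM (TDG KD 1 and siRNA control 1) or EAR (TDG KD 2 and siRNA control 2), a possible batch, and the difference between TDG KD and siRNA control turned with it. Depth was 20.4 M reads in TDG KD 1 against 29.2 M in siRNA control 1, and 28.7 against 28.8 M within EAR. Prefix and difference in depth thus cannot be told apart here. Within EAR the promoter difference was positive for all 5 members, from 0.0163 for Dnmt1 to 0.0391 for Uhrf1. Within BHAM it was 0.00186 for Dnmt1 and -0.00681, -0.00441, -0.0103 and -0.00502 for Uhrf1, Dnmt3a, Dnmt3b and Dnmt3l. In gene bodies all 5 members were higher in TDG KD within EAR and lower in it within BHAM. A positive difference for 4 of the 5 promoters therefore rested on the EAR libraries, with 1 library of each condition per prefix and so no test within either. With TDG KD 1 left out, all 5 promoter differences were positive, from 0.0133 for Dnmt3a to 0.0265 for Uhrf1.

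**Figure D2:**
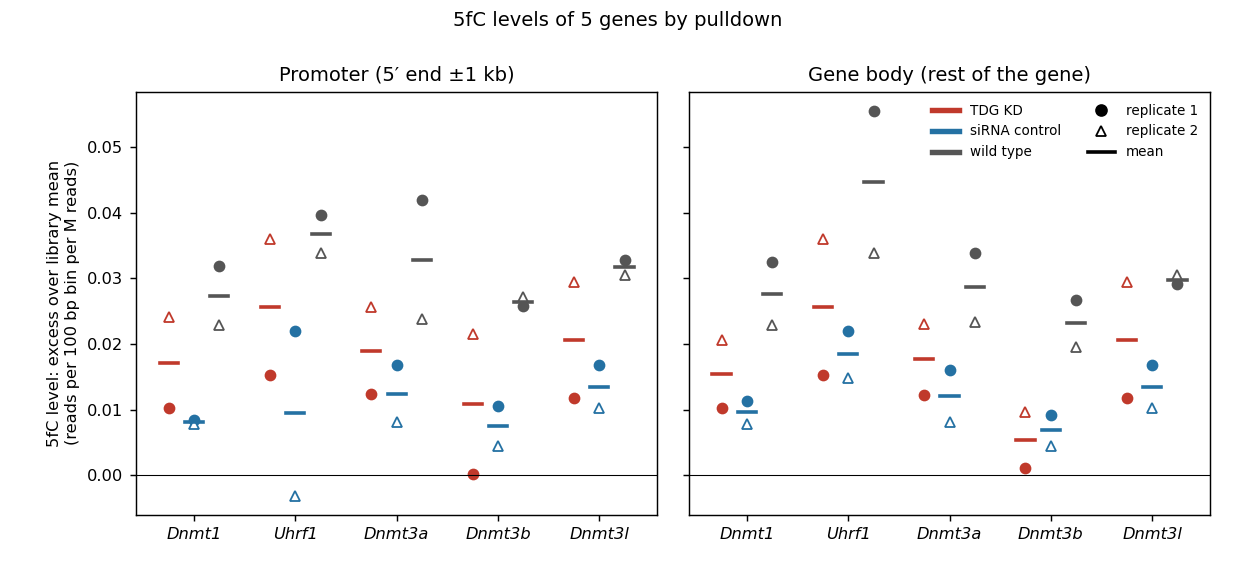
Level of 5fC on the y axis (excess over the library mean, in reads per 100 bp bin per M reads) for the promoter (left) and the body (right) of each gene. Circles are replicate 1, triangles replicate 2 and bars the mean of 2 libraries. In TDG KD cells replicate 2 lay above replicate 1 in every window, and wild-type cells lay above siRNA control cells in every window.

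Between siRNA control and wild-type cells the members did separate. For all 5 promoters both control values lay below both wild-type values, which held for 42.6% of all promoters, and for all 5 bodies, against 47.7% of all bodies. Dnmt1 had promoter levels of 0.00835 and 0.00784 in siRNA control, against 0.0319 and 0.0229 in wild type. Uhrf1 had 0.0220 and -0.00310 in siRNA control, against 0.0397 and 0.0339 in wild type. The mean differences ran from -0.0274 for Uhrf1 to -0.0182 for Dnmt3l, each at p = 0.333, the smallest that this exact two-sided permutation test can give.

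The de novo genes and their cofactor showed the same order. Dnmt3a had 0.0167 and 0.00806 in siRNA control, against 0.0419 and 0.0237 in wild type. Dnmt3b had 0.0105 and 0.00453 in siRNA control, against 0.0257 and 0.0272 in wild type. Dnmt3l had 0.0168 and 0.0102 in siRNA control, against 0.0329 and 0.0305 in wild type. Since the groups did not overlap, leaving out a library could change the size of a difference but not its sign. With wild type 1, the deepest library, left out, the differences of the 5 promoters ran from -0.0245 for Uhrf1 to -0.0113 for Dnmt3a. Without siRNA control 2, the library with the value below the mean at Uhrf1, they ran from -0.0191 for Dnmt1 to -0.0148 for Uhrf1, which then had the smallest of the 5. In the bodies they were -0.0181 for Dnmt1, -0.0263 for Uhrf1, -0.0166 for Dnmt3a, -0.0163 for Dnmt3b and -0.0163 for Dnmt3l.

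The median promoter level of all genes was also lower in siRNA control, at 0.000690 and -0.000246 in siRNA control, against 0.0219 and 0.00319 in wild type. When each promoter was instead placed by its percentile among the protein-coding genes of its own library, 1 of 5 members, Dnmt3a, lay lower in both control than in both wild-type libraries, against 18.2% of all genes. The percentile of Dnmt3a was 76.8 and 72.7 in siRNA control, against 80.3 and 79.5 in wild type. The other 4 overlapped on this scale.

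By rank, the members mostly lay above the middle of all genes. The median percentile of the 5 promoters was 80.1 and 74.3 in TDG KD, 76.8 and 72.0 in siRNA control, and 67.6 and 87.8 in wild type, where 50 is the middle of all genes. Of the 30 promoter values (5 genes in 6 pulldowns) only 2 lay under that middle, Uhrf1 in siRNA control 2 at 24.1 and Dnmt3b in TDG KD 1 at 45.6. In TDG KD 1 the 3 promoters called unconfident still had percentiles of 74.7 (Dnmt1), 81.6 (Dnmt3a) and 80.1 (Dnmt3l).

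The order of the members by rank put Uhrf1 first in 4 of 6 pulldowns, with promoter percentiles of 89.5 and 92.2 in TDG KD, 91.0 and 24.1 in siRNA control, and 77.5 and 96.7 in wild type. Its body lay at or above the 90th percentile in all 6 pulldowns, between 90.3 in TDG KD 1 and 97.6 in wild type 2. Dnmt3l followed with promoter percentiles of 80.1 and 82.8 in TDG KD, 77.2 and 82.3 in siRNA control, and 67.6 and 93.8 in wild type. Dnmt3a had the narrowest range, 72.7 to 81.6, and Dnmt1 ran from 58.6 to 77.2. Dnmt3b, with the highest CpG ratio of the 5, ranked lowest in 3 of 6 pulldowns, and its promoter ran from 45.6 to 87.8. Neighbours in this order overlapped in their ranges over the 6 pulldowns.

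Promoter and body were compared within each library. Dnmt3a was higher at the promoter in 5 pulldowns and equal in 1, with a mean promoter minus body of 0.00197 ± 0.00316 (SD, n = 6; p = 0.0625, exact two-sided sign-flip test; Benjamini-Hochberg adjusted p = 0.877 over 20250 genes). Uhrf1 went the other way, with a mean of -0.00564 ± 0.00876, lower at the promoter in siRNA control 2 and wild type 1 and equal in the other 4 (p = 0.5, exact sign-flip test). Dnmt3b averaged 0.00317, Dnmt3l 0.000628 and Dnmt1 -1.69e-05 (p = 0.3125, 1 and 1, exact sign-flip test). A library in which 1 domain covers the gene gives exactly 0, which no sign flip changes. This was so in 5 libraries for Dnmt3l, 4 for Uhrf1, 3 for Dnmt1 and 1 each for Dnmt3a and Dnmt3b. The p of Dnmt3l was thus fixed in advance, and those of Uhrf1 and Dnmt3a were the smallest their other libraries allowed. For these 3 genes the test cannot decide. The promoter lay above the body in all 6 pulldowns in 0 of 5 members, against 1.87% of all genes. Where all 6 libraries differ from 0 the smallest p this test can give is 0.03125. It was reached by 618 of 20250 genes, and 0 genes passed the adjusted threshold of 0.05. A gene could pass only if most of all genes reached this smallest p. The adjusted test could thus hardly call any gene, and its result decides nothing.

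The wild type 1 library showed what lay inside the broad domains. There the genes were cut into 4 enriched domains for Uhrf1, 9 each for Dnmt1 and Dnmt3l, 14 for Dnmt3b and 22 for Dnmt3a, with median widths of 3750, 3400, 1900, 600 and 1550 bp for Uhrf1, Dnmt1, Dnmt3l, Dnmt3b and Dnmt3a. By the window measure 5 of 5 promoters were enriched in this library, against 50.9% of all promoters. The 5′ ends of 4 members lay in an enriched domain. That of Dnmt1 ran from -0.407 to 1.793 kb relative to the 5′ end at a level of 0.0462. That of Dnmt3b ran from -0.502 to 0.098 kb at a level of 0.0372.

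The 5′ end of Uhrf1 was the exception. It lay in a background domain of 200 bp, from -0.123 to 0.077 kb, with a score of -2, that is 2 reads per bin fewer than the input before any scaling, and a level of -0.0609. Over so short a domain this value rests on few reads. Enriched domains stood on both sides, at 0.0417 upstream and 0.0596 downstream. Of the 150 bases of Uhrf1 printed above, 18% lay in an enriched domain in this library. Wild type 2 gave 0.0339 over the whole locus and did not resolve the gap. This 5′ end was also background in siRNA control 2, in a far wider domain of 11.0 kb at a level of -0.00310. That library therefore does not show the same narrow gap.

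**Figure D3:**
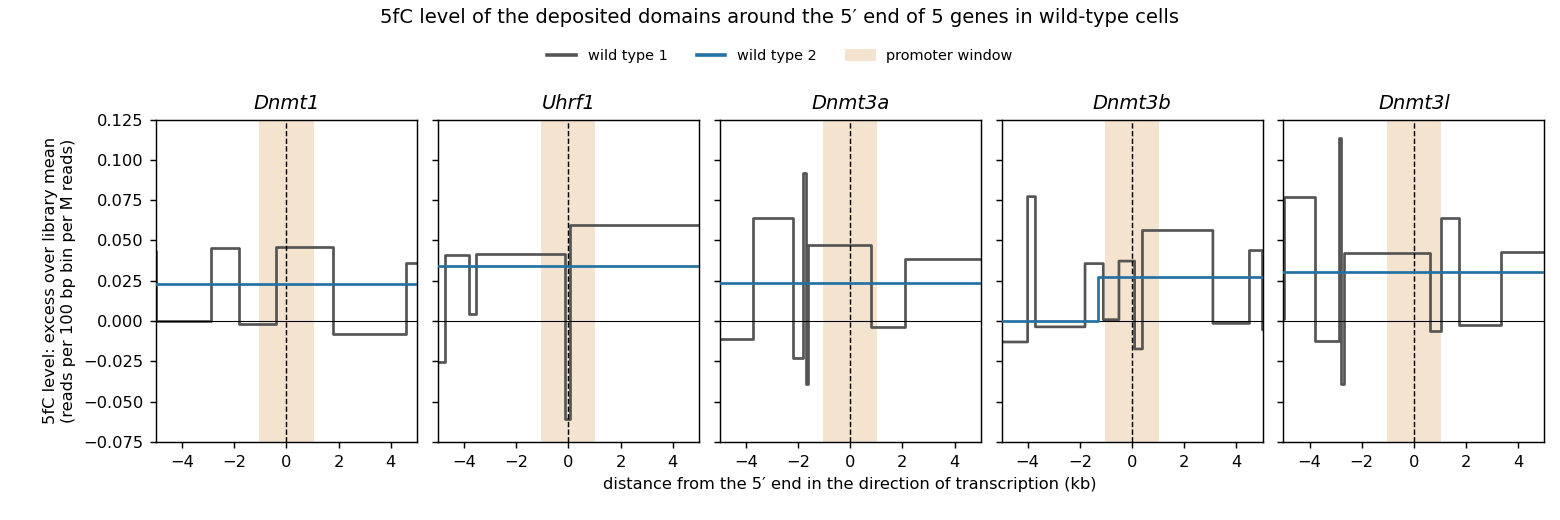
Level of 5fC on the y axis (excess over the library mean, in reads per 100 bp bin per M reads) against the distance from the 5′ end in kb in both wild-type libraries, with the promoter window shaded. Wild type 1 stepped between enriched and background domains in every gene. It fell to -0.0609 at the 5′ end of Uhrf1, in a domain of 200 bp that rests on few reads. Within the plotted range wild type 2 was flat in all genes but Dnmt3b.

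At Dnmt3a a gap lay further in. The gene record begins with a noncoding transcript, and the first start of a coding transcript lies 0.52 kb further in, inside a CpG-rich stretch of 2327 bp with 292 CpG sites. In wild type 1 a background domain with a level of -0.00387 ran from 0.794 to 2.094 kb after the 5′ end, and 44.1% of the CpG-rich stretch was enriched. In the other libraries the whole stretch had the value of the domain around it, 0.0123 (unconfident) and 0.0257 in TDG KD, 0.0167 and 0.00806 in siRNA control and 0.0237 in wild type 2. The 200 bases of this stretch with the most CpG sites outside annotated untranslated regions, 37, are shown with each CpG in capitals because they lay entirely within that gap.
Dnmt3a CpG-rich stretch, chr12:3807268-3807467, plus strand: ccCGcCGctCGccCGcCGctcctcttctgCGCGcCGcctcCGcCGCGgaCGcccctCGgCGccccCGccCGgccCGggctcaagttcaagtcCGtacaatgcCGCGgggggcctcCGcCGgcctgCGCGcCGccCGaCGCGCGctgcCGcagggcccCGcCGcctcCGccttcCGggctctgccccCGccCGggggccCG
The start of the coding transcripts that begin 85.721 kb into the gene, near the 3′ part, was enriched over its whole window of 1 kb on either side in all pulldowns but TDG KD 1, with levels of 0.0123 and 0.0205 in TDG KD, 0.0167 and 0.00806 in siRNA control, and 0.0421 and 0.0248 in wild type. At the first coding start the levels were 0.0123 and 0.0257 in TDG KD, 0.0167 and 0.00806 in siRNA control, and 0.0287 and 0.0237 in wild type. In TDG KD 1 and both siRNA control libraries both starts lay in 1 domain and had the same value by construction. Of the other 3 libraries, the internal start had the lower level in TDG KD 2 and the higher in both wild-type libraries.

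CpG-rich stretches in the 5 bodies, 49 in all, lay mostly inside enriched domains in every library but TDG KD 1. The number enriched was 7 and 48 in TDG KD, against 20.2 and 61.0% of such stretches in all gene bodies. It was 47 and 49 in siRNA control, against 56.9 and 53.0%, and 37 and 49 in wild type, against 60.8 and 58.1%. Stretches of 1 gene can share a domain and are not independent. In TDG KD 1 they were enriched in 0 of 17 cases in Dnmt1 and 0 of 19 in Dnmt3a, in TDG KD 2 in 16 of 17 and 19 of 19, in siRNA control 1 in 16 of 17 and 18 of 19, and in wild type 1 in 11 of 17 and 15 of 19. Those of Uhrf1 were enriched in 6 of 6 cases in every library but wild type 1, where 5 of 6 were. All 5 in the body of Dnmt3l were enriched in every library but TDG KD 1, where 0 of 5 were. The promoter of Dnmt3l had no such stretch and a CpG ratio of 0.208. It was enriched over 81.1% of its length in wild type 1 and over 100% in wild type 2. In wild type 2 a domain of 212.7 kb held the whole gene, so that library cannot resolve the promoter. Enrichment at a promoter window without a CpG-rich stretch thus rests on this gene in wild type 1. The window was placed by the gene record. The first coding start of Dnmt3l lay 0.34 kb further in, and a CpG-rich stretch of 558 bp was centred 1.606 kb after the 5′ end.

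The domains of at least 500 bp with the highest score in wild type 1 lay inside the genes, not at their 5′ ends. In Dnmt3b it was a domain of 600 bp centred 22.9 kb after the 5′ end, with a score of 7.38 and 165 bp of coding exon, the highest score among such domains of the 5 genes. At 100 bp per bin this is a surplus of 44.3 reads over the input, so its level of 0.144 rests on few reads. In Uhrf1 it was a domain of 3600 bp at 13.4 kb with a score of 5.16 and 742 bp of coding exon, in Dnmt3l one of 1900 bp at 10.4 kb with a score of 4.37, and in Dnmt1 one of 800 bp at 12.1 kb with a score of 3.50. That of Dnmt1 was a surplus of only 28 reads. There TDG KD 2 and siRNA control 1 were background, at levels of -0.00847 and -0.00602, and TDG KD 1 was unconfident. In siRNA control 2 and wild type 2 enriched domains held the whole of Dnmt1. In Dnmt3a the highest was an intronic domain of 1000 bp at 47.0 kb with a score of 4.65, a surplus of 46.5 reads. In every gene but Uhrf1 most such domains lay in the body, so the highest was more likely to lie there by number alone. This was not tested. The highest promoter domain ranked 2 of 4 in Uhrf1, 5 of 9 in Dnmt1 and 6 of 12 in Dnmt3b. It ranked 11 of 21 in Dnmt3a and 6 of 8 in Dnmt3l. The 200 bases with the most CpG sites outside annotated untranslated regions in these highest domains of Dnmt3b and Dnmt3a are shown with each CpG in capitals. They contrast an exonic with an intronic site.
Dnmt3b domain, chr2:153497870-153498069, plus strand: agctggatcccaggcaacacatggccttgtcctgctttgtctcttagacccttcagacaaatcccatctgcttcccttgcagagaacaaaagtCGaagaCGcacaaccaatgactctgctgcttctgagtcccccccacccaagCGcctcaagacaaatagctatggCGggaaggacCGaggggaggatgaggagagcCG
Dnmt3a domain, chr12:3853158-3853357, plus strand: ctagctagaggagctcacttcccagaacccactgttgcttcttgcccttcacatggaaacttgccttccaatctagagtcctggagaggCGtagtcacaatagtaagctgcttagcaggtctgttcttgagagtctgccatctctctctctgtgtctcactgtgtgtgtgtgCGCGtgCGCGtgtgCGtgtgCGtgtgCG
The Dnmt3b stretch held 6 CpG sites, all within its 118 bases of coding exon, and the Dnmt3a stretch held 8, of which most stood in the alternating repeat at its 3′ end. Over all exons of the body in wild type 1 the level was higher than over the introns in Dnmt1 (0.0380 against 0.0318), Dnmt3b (0.0336 against 0.0257) and Dnmt3l (0.0393 against 0.0276), about equal in Uhrf1 (0.0558 against 0.0555) and lower in Dnmt3a (0.0318 against 0.0342). In wild type 2 Dnmt3b went the other way, with 0.00807 over exons and 0.0213 over introns. Dnmt3a turned too, with 0.0245 over exons and 0.0232 over introns. Dnmt1, Uhrf1 and Dnmt3l lay in 1 domain there, so exons and introns had the same value by construction. The higher exon level of wild type 1 thus did not recur for Dnmt3b and could not be checked for Dnmt1 and Dnmt3l.

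How far the enrichment ran on into the flanks differed between members and libraries. Within 20 kb upstream of the promoter window, Dnmt1 was enriched over 0% in TDG KD 1, where the flank was unconfident, over 100% in TDG KD 2, both siRNA control libraries and wild type 2, and over 74.2% in wild type 1. Around Uhrf1 the upstream flank was enriched over 58.8% in siRNA control 2, 85.8% in wild type 1 and 100% in the other 4 pulldowns. The 20 kb downstream of Dnmt3a were enriched over 0 and 56.3% in TDG KD, 81.5 and 47.8% in siRNA control, and 48.7 and 98.8% in wild type. Dnmt3b was bounded close to its 5′ end in wild type 2, but not in every library. Its upstream flank was enriched over 0 and 54.2% in TDG KD, 57.4 and 100% in siRNA control, and 31.6 and 1.59% in wild type. In wild type 2 the enriched domain began at -1.302 kb, just outside the promoter window. It began at -9.102 kb in TDG KD 2 and at -11.902 kb in siRNA control 1, and in siRNA control 2 it covered the whole upstream flank. The level of that flank in wild type 2 was 0.000677, against 0.0272 at the promoter.

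Genes that work with the members were read in the same way. Of 29 partners and readers of DNA methylation, 4 had a promoter enriched in both replicates in TDG KD cells, 5 in siRNA control cells and 12 in wild-type cells, against the 14.5, 33.2 and 37.4% of all genes. Their median percentile was 36.1 and 49.4 in TDG KD, 32.7 and 41.7 in siRNA control, and 62.4 and 55.1 in wild type, under the median of the 5 members in every pulldown. Promoters of 3 partners were enriched in all 6 pulldowns: Mbd3, a subunit of the NuRD complex, Zbtb4, a zinc finger protein that binds methylated DNA, and Ahcy, which breaks down the S-adenosylhomocysteine left by methylation. Promoters of 8 were enriched in 0 of 6, among them those of Mbd2 and Zbtb33, which bind methylated DNA, the chromatin remodeller Hells, the RNA methyltransferase Trdmt1, the histone methyltransferase Ehmt1, and Zfp57 and Dppa3, which protect methylation in the early embryo. The shares of all promoters enriched in all 6 or in 0 of 6 were not computed. These counts are therefore not a trait of the list.

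Of the genes of the oxidation and excision steps, Tet1, Tet2 and Tdg lay below the middle of all genes in every pulldown. Tet3 lay above it, with promoter percentiles of 66.3 and 62.3 in TDG KD, 70.8 and 66.0 in siRNA control, and 68.5 and 66.2 in wild type. Of the Tet genes and Tdg, Tet1 and Tet2 were enriched at the promoter in 0 of 6 pulldowns, Tdg in 1 and Tet3 in 5, with no share of all promoters computed for 0 of 6. The median percentile of these 4 genes was 14.7 and 10.6 in TDG KD, 14.6 and 19.9 in siRNA control, and 43.6 and 40.9 in wild type. Higher levels in both TDG KD than in both control libraries were found for 9 of the 29 partners and 0 of these 4 genes, against 11.0% of all genes. Lower levels in both control than in both wild-type libraries were found for 18 of 29 and 4 of 4, against 42.6%.

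**Figure D4:**
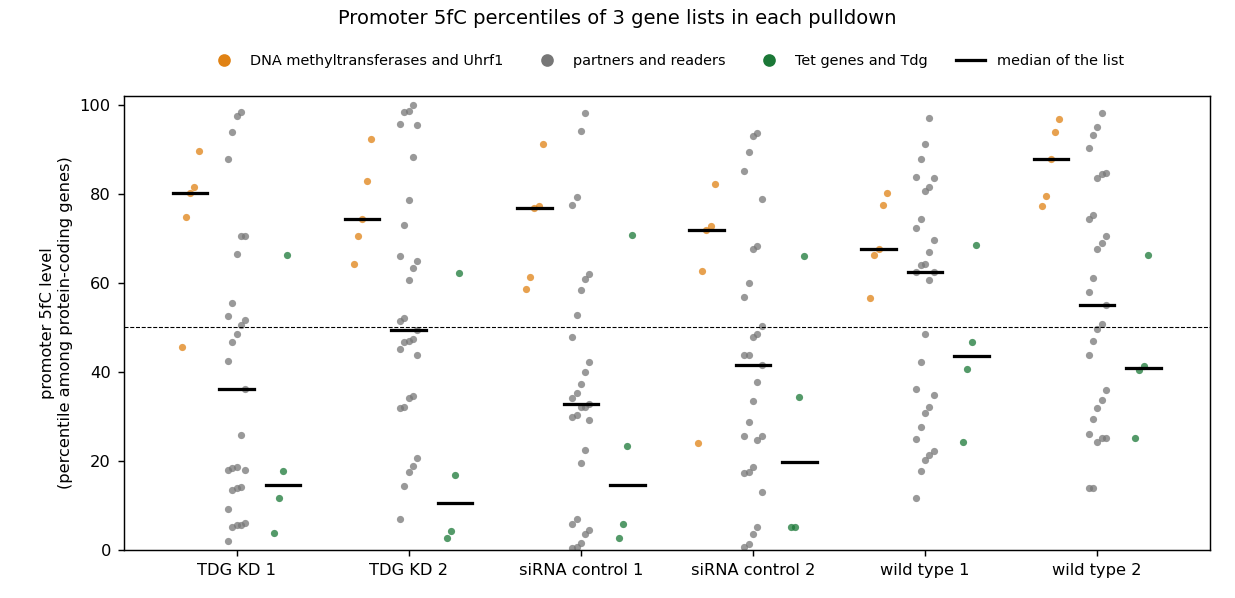
Percentile of the promoter level among all protein-coding genes on the y axis for each pulldown on the x axis. Points are genes, orange for the 5 members, grey for 29 partners and readers and green for Tet1, Tet2, Tet3 and Tdg, and bars are medians. The median of the members lay above those of both other lists in every pulldown, and the dashed line marks the middle of all genes.

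The promoters most like each member in percentile over the 6 pulldowns, at least 1 Mb away or on another chromosome, were Nipal3 and Urm1 for Dnmt1, Fzd8 and A930016O22Rik for Uhrf1, Cxcl14 and Irgq for Dnmt3a, Ceacam15 and 8430423G03Rik for Dnmt3b, and Ddx41 and 1700013G24Rik for Dnmt3l. The mean absolute difference in percentile was smallest for Dnmt3a, at 0.803 with Cxcl14 and 1.69 with Irgq. It was largest for Uhrf1, at 6.15 with Fzd8 and 6.21 with A930016O22Rik. None of the members was among the 2 closest promoters of another member.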

How the data were processed

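5fC was measured by chemical pulldown and sequencing in 6 libraries of J1 cells (TDG KD, siRNA control and wild type, 2 each) with 1 shared input. Per the paper's methods and the submitters' notes, alignment to mm9 used BWA 0.6.1. The authors retained reads with a unique placement (20.4 to 45.9 M per pulldown, 26.5 M for the input) and ran rseg on each pulldown against the input with bins of 100 bp. The deposited value is a score in reads per bin, pulldown minus input, not adjusted to depth. A further deposited score was left out because it follows domain width. Files of reads were not analysed here, so precision rests on 2 libraries per condition and carries no counting interval.

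From these domains, levels, states and percentiles per window were computed with Python 3.11.15, NumPy 2.4.6 and SciPy 1.17.1, and drawn with Matplotlib 3.10.9. Of 22367 protein-coding genes, 22085 had a promoter value and 20273 a body value in all pulldowns. Conditions were compared by exact two-sided permutation tests over libraries. Promoter minus body was tested by exact two-sided sign flips with Benjamini-Hochberg adjustment over all genes. The computations were tested on simulated data. The members and lists were chosen with earlier results of these data known. Named were all members, list genes (the Tet genes with Tdg are a list) enriched in all 6 pulldowns or in 0, and the 2 promoters most like each member. Tet3 and Tdg fell outside this rule and were named after their values were seen. 1 list gene that the rule took is not reported here by name. Alternatives were other promoter windows and starts, the unscaled score, centring by chromosome, percentiles, other rules for enriched windows, leaving out each library and comparison within name prefixes.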

Additional observations from a re-analysis of the deposited data

How the results depend on the processing

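The exact permutation test with 2 libraries a group does not go below p = 0.333 under any setting, so directions and sizes are compared here. The labels give no replicate numbers that pair libraries, so no replicate block was fitted, and differences within the name prefixes are given below. The 10 differences between siRNA control and wild-type cells kept their direction in all 85 recomputed values. The groups overlapped in none of these windows, so the values with a library left out could not change sign. Of the 105 recomputed differences between TDG KD and siRNA control, 25 changed sign, and the causes were not tested beyond what each setting leaves out.

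Within BHAM the promoter difference between TDG KD and siRNA control was -0.00681 (Uhrf1), -0.00441 (Dnmt3a), -0.0103 (Dnmt3b) and -0.00502 (Dnmt3l), and the body difference -0.00113 (Dnmt1), -0.00681 (Uhrf1), -0.00372 (Dnmt3a) and -0.00502 (Dnmt3l). Within EAR the body of Dnmt3b turned to 0.00515. On the score as deposited, in reads per bin, the promoters gave -0.0405 (Dnmt3a), -0.0814 (Dnmt3b) and -0.0246 (Dnmt3l), and the bodies -0.0521 (Dnmt1), -0.0390 (Uhrf1), -0.0687 (Dnmt3a) and -0.0246 (Dnmt3l). The mean score of TDG KD 1 was -0.277 reads per bin, against 0.0801 in TDG KD 2 and 0.103 and 0.0492 in siRNA control. On percentiles the promoter of Dnmt3b gave -7.12 and the body of Uhrf1 -1.37.

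Leaving out each library in turn moved the promoter difference between TDG KD and siRNA control over -7.00e-05 to 0.0133 (Dnmt3a), -0.00733 to 0.0141 (Dnmt3b) and -0.00172 to 0.0159 (Dnmt3l), and the body difference over -0.00323 to 0.0175 (Uhrf1), -0.00573 to 0.00284 (Dnmt3b) and -0.00172 to 0.0159 (Dnmt3l). The lowest value was the one without TDG KD 2 in each case and the highest the one without TDG KD 1. The promoter differences of Dnmt1, 0.00212 to 0.0160, and Uhrf1, 0.00356 to 0.0287, stayed positive. For Dnmt1 this was fixed in advance, since its groups did not overlap.

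For promoter minus body, Dnmt1 gave 0.00161 with a window of 500 bp on either side and -0.000712 to 0.000578 with each library left out. On percentiles Dnmt3a gave -0.0908 and Dnmt3l -2.34. Dnmt3l ranged over 0 to 0.000753, and was 0 without wild type 1, the only library that split this gene. Without that library Dnmt3a fell to 0.000748, the lowest of its values with a library left out.

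The count of member promoters enriched in both TDG KD libraries, 1, became 4 with unconfident sequence counted as enriched and 5 in either replicate, and ranged over 1 to 5 with a library left out. For bodies it became 2 with any enriched base pair, 5 with unconfident sequence counted and 5 in either replicate, and ranged over 1 to 5. Requiring the whole window to be enriched left 0 promoters and 0 bodies in wild-type cells and 1 body in siRNA control cells. A gene inside 1 wide domain has a single value, so differences within it were not detectable. At 28.7 and 28.8 M reads, the median enriched domain was 5900 bp wide in TDG KD 2 and 24550 bp wide in siRNA control 2.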
